A study of Mus musculus with 2 samples.

Results

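The families described here are 51 class II endogenous retrovirus (ERV) families of the mouse whose names start with RLTR. They were chosen by name: the superfamily had to be ERVK, and names starting with RLTR9, RLTR10, RLTR13, RLTR17 or RLTRETN were left out. They are 51 of the 634 transposable element families in the table and 51 of its 150 ERVK families. Of the 51, 46 are long terminal repeats (LTRs) and 5 are internal parts, marked "-int", and together they cover 22 name numbers and 72609 annotated copies. The rule used names and no measured value, but it was chosen with earlier results of these data known.

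RNA-seq was used to ask whether ERVs become active in mouse embryonic stem (ES) cells that have lost Daxx, a chaperone that places the histone variant H3.3 on chromatin. The Daxx-deleted culture received 1 µM 4-hydroxytamoxifen (4-OHT) for 48 h and then had 3 days of recovery, and the control culture received DMSO, the solvent. Both cultures were Daxx fl/fl; RosaCreERT ES cells on a B6/129 background, grown on feeder cells that mitomycin C had stopped from dividing. Each condition is 1 library, so replicate error is unknown, no test was run, and an effect of 4-OHT or of active Cre cannot be told apart from the loss of Daxx. The table holds no genes, so Daxx, ES cell markers and feeder cell markers were not analysed here, and which library is the deleted one is known from the labels alone.

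A complete ERV has an internal part, which carries the viral genes, between a pair of LTRs. The LTR holds the promoter and the signal that ends the transcript, and recombination between both LTRs often leaves a solitary LTR behind. Class II ERVs are relatives of betaretroviruses, and the IAP and ETn elements of the mouse belong to them. In ES cells many class II ERVs are kept silent by histone H3 lysine methylation, and H3.3 placed by Daxx and Atrx has been found at some of them.

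Most of these families had slightly higher values in the Daxx-deleted library, and none reached a 2-fold difference. RPKM is a read number divided by the length of the feature and by the library's total of reads in exons of genes. A floor asked for at least 0.01 RPKM, averaged over both libraries, and for at least 100 copies, and 47 of the 51 members passed it. Of these 47, 40 (85.1%) were higher in the Daxx-deleted library than in the control and 7 were lower. Over all 436 families past the floor 78.9% were higher, so the share among the members lay near that of the table. The median log2 change was 0.20 for the 47 members and 0.18 for all 436 families. Log2 changes were taken after adding 0.001 RPKM to both values, and ratios are quotients of the deposited values. Set against the median family, 26 members lay above it and 21 below it. Of the 40 higher members, 14 thus changed side once the shift of the median family, 0.18, was taken off, among them RLTR18, RLTR18-int and RLTR19.

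Large changes were few. At 1.5-fold, 4 of the 47 members were higher (8.51%), against 15.1% of all families, and 0 were lower, against 1.38% of all families. At 2-fold, 0 members were higher and 0 were lower, against 5.28% and 0.459% of all families. The log2 changes of the members ran from -0.45 to 0.92, and those of all families from -1.17 to 2.30. Within 0.3 log2 units of the median family lay 37 of the 47 members (78.7%) and 299 of the 436 families (68.6%). These shares describe a single pair of libraries and were not tested.

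**Figure D1:**
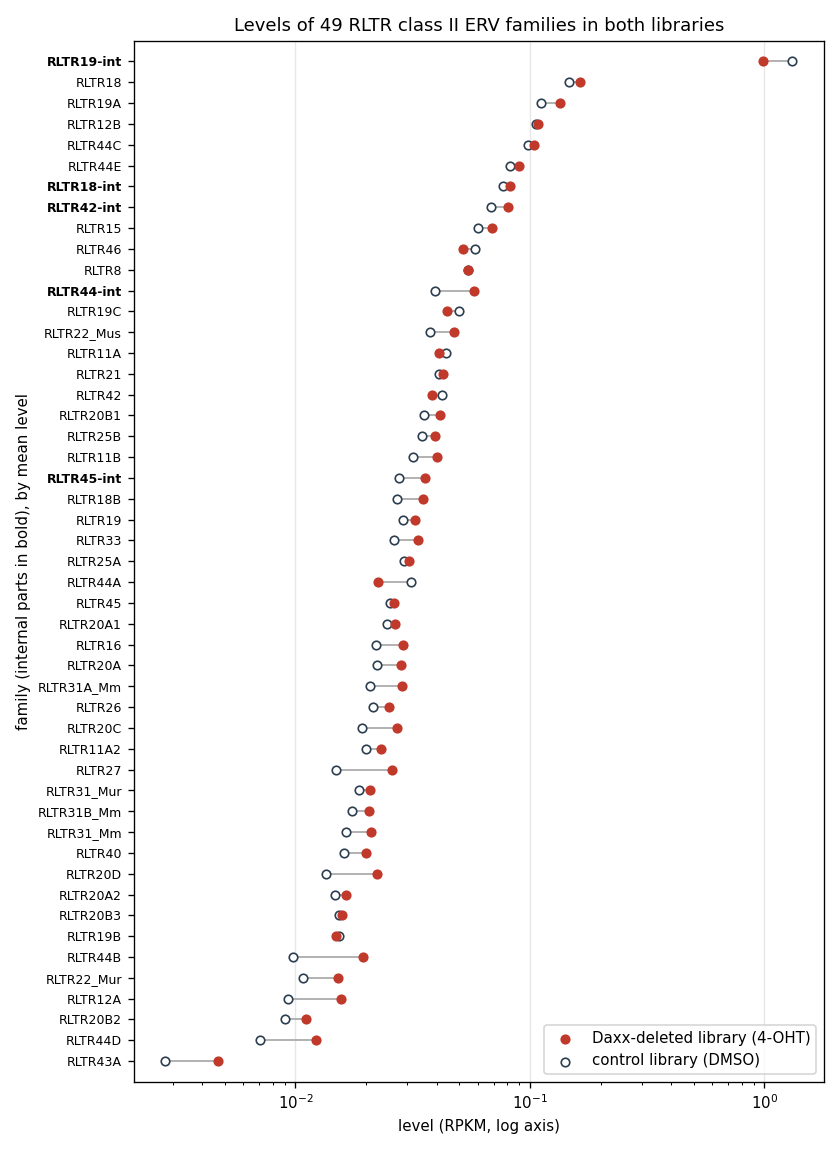
Each row is a family and the horizontal axis is its level in RPKM on a log scale, with filled points for the Daxx-deleted library and open points for the control library. The 49 members with a value above 0 are shown. RLTR19-int stands far above the rest at 0.988 RPKM in the Daxx-deleted library and 1.32 RPKM in the control, and for most other families the filled point lies a little to the right of the open point.

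RLTR19-int, an internal part with 2528 annotated copies, had by far the highest level. Its level was 0.988 RPKM in the Daxx-deleted library and 1.32 RPKM in the control, a ratio of 0.750 and a difference of -0.329 RPKM. In the control it ranked second among the 150 ERVK families and 11 among all 634. It held 33.2% of the RPKM summed over the 51 members in the Daxx-deleted library and 42.9% in the control. The sum over all 51 was 2.97 RPKM in the Daxx-deleted library and 3.07 RPKM in the control, a ratio of 0.969. Without RLTR19-int the sums were 1.99 RPKM in the Daxx-deleted library and 1.75 RPKM in the control, a ratio of 1.13, so this family alone set the direction of the sum. Across the table, 3 families were lower by more RPKM, and 0 of those belonged to ERVK. A difference in RPKM grows with level, however. By log2 change, the ERVK families RLTR9A2 at -1.12 and RLTR44A at -0.45 lay below RLTR19-int at -0.41. Several families outside ERVK also did, the lowest being HERVL74-int at -1.17. Other ERVK internal parts of high level were also lower, ETnERV2-int at -0.28 and ETnERV-int at -0.19, while MMETn-int was nearly unchanged at 0.01.

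The LTRs that share the number of RLTR19-int split in direction and were far lower in level. RLTR19A, with 155 copies, had 0.134 RPKM in the Daxx-deleted library and 0.111 RPKM in the control. RLTR19, with 1012 copies, had 0.0324 RPKM in the Daxx-deleted library and 0.0288 RPKM in the control. Both were thus higher in the Daxx-deleted library, while the remaining LTRs of this number were lower. RLTR19C had 0.0441 RPKM in the Daxx-deleted library and 0.0497 RPKM in the control, and RLTR19B had 0.0149 RPKM in the Daxx-deleted library and 0.0154 RPKM in the control. The internal part stood 7.36 times above RLTR19A in the Daxx-deleted library and 11.9 times above it in the control, on a per-length scale. For RLTR19B these quotients were 66.5 in the Daxx-deleted library and 85.7 in the control. RLTR19 was the only number with at least 3 members past the floor whose median log2 change was below 0, at -0.04, or -0.22 relative to the median family.

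The other internal parts were each higher in the Daxx-deleted library by under 1.5-fold, and 78.9% of all families past the floor were higher. RLTR44-int had 0.0574 RPKM in the Daxx-deleted library and 0.0395 RPKM in the control, a ratio of 1.45, the highest of the 5. RLTR45-int had 0.0357 RPKM in the Daxx-deleted library and 0.0277 RPKM in the control, a ratio of 1.29. RLTR42-int had 0.0806 RPKM in the Daxx-deleted library and 0.0683 RPKM in the control, a ratio of 1.18. RLTR18-int was nearly level, at 0.0824 RPKM in the Daxx-deleted library and 0.0768 RPKM in the control. The 5 internal parts had a median log2 change of 0.24, or 0.06 relative to the median family. Summed before the ratio was taken, their RPKM gave a log2 ratio of -0.30, of the other sign, and 0.27 without RLTR19-int. Internal parts of ERVK families not named RLTR, which include those of IAP and ETn, had a median log2 change of 0.43 over 20 families. Of those 20, 15 were higher and 5 were lower. At least 1.5-fold higher were 7 of the 20 (35%), against 15.1% of all families.

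An internal part and its LTRs did not always lie on the same side. RLTR42, the LTR of RLTR42-int by name, had 0.0384 RPKM in the Daxx-deleted library and 0.0423 RPKM in the control, so it was lower where its internal part was higher. RLTR45 had 0.0263 RPKM in the Daxx-deleted library and 0.0253 RPKM in the control, a log2 change of 0.05 against 0.36 for RLTR45-int. RLTR18, the LTR with the highest level of all 46, had 0.163 RPKM in the Daxx-deleted library and 0.146 RPKM in the control. It stood above its internal part, as RLTR44C and RLTR44E did: the level of RLTR18-int was 0.506 times that of RLTR18 in the Daxx-deleted library and 0.526 times in the control. RLTR18B had 0.0350 RPKM in the Daxx-deleted library and 0.0271 RPKM in the control. Names are the only link used here between an internal part and an LTR. Multi-mapped reads were kept, so such pairs can also hold the same reads.

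The RLTR44 LTRs held both the highest and the lowest ratio among the LTRs past the floor. RLTR44B, with 164 copies, had 0.0193 RPKM in the Daxx-deleted library and 0.00974 RPKM in the control, a ratio of 1.98 and a log2 change of 0.92. RLTR44A, with 189 copies, had 0.0226 RPKM in the Daxx-deleted library and 0.0311 RPKM in the control, a ratio of 0.725 and a log2 change of -0.45. RLTR44C and RLTR44E stood at several times those levels and close to the median family. RLTR44C had 0.104 RPKM in the Daxx-deleted library and 0.0983 RPKM in the control. RLTR44E, with 121 copies, had 0.0896 RPKM in the Daxx-deleted library and 0.0820 RPKM in the control. The copy numbers of these LTRs, 121 to 201, are the fewest among members past the floor apart from RLTR19A.

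**Figure D2:**
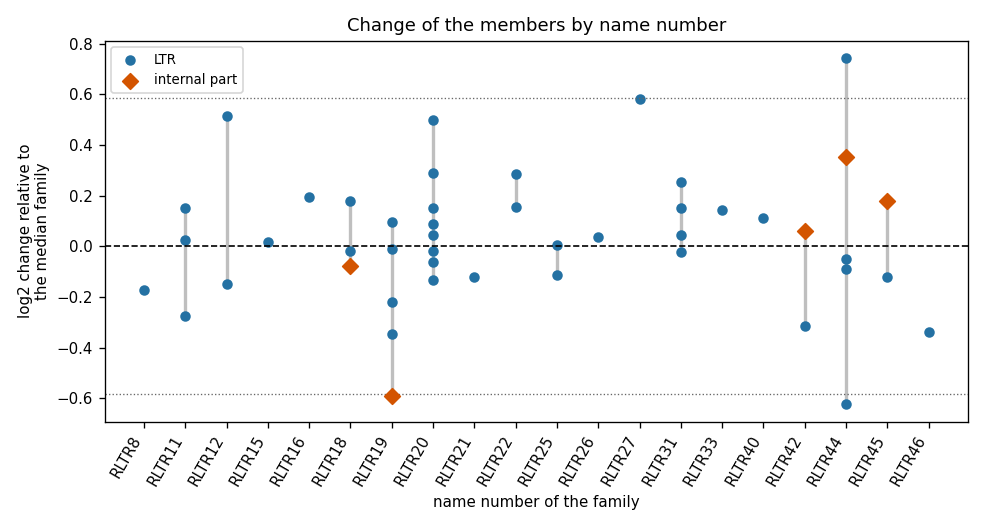
The horizontal axis gives the name number and the vertical axis the log2 change relative to the median family, for the 47 members past the floor. Circles are LTRs, diamonds internal parts, the dashed line is the median family and the dotted lines 1.5-fold either way. RLTR44 spans from -0.62 to 0.74, and RLTR19-int lies lowest of its number at -0.59. RLTR31 runs from -0.02 to 0.25 and RLTR22 from 0.16 to 0.29.

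The remaining families at least 1.5-fold higher were RLTR27, RLTR12A and RLTR20D, all LTRs. RLTR27, with 1528 copies, had 0.0257 RPKM in the Daxx-deleted library and 0.0148 RPKM in the control, a ratio of 1.74. RLTR12A, with 970 copies, had 0.0156 RPKM in the Daxx-deleted library and 0.00928 RPKM in the control, a ratio of 1.68. RLTR20D, with 1449 copies, had 0.0222 RPKM in the Daxx-deleted library and 0.0135 RPKM in the control, a ratio of 1.64. All of these were low families: their differences were 0.0109, 0.00632 and 0.00867 RPKM, and that of RLTR44B was 0.00959 RPKM. RLTR19A, at a ratio of 1.21, had a larger difference than any of these, 0.0231 RPKM, which was the largest positive difference among the 51. Relative to the median family only RLTR44B remained past 1.5-fold higher, while RLTR44A and RLTR19-int were past 1.5-fold lower, with log2 values of 0.74, -0.62 and -0.59. On that scale 2.13% of the members were at least 1.5-fold higher, against 9.4% of all families. At least 1.5-fold lower were 2 of 47 members, against 12 of 436 families (2.75%). With only 2 members, both close to the threshold, these shares cannot be told apart.

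The members at least 1.5-fold higher lay at the low end of the levels. Among the 12 members with a mean of 0.01 to 0.02 RPKM, 3 were at least 1.5-fold higher (25.0%), against 19.8% of 116 families of the table in that band. Between 0.02 and 0.05 RPKM this held for 1 of 24 members (4.17%), against 14.3% of 175 families. At 0.05 RPKM and above it held for 0 of 11 members, against 12.4% of 145 families. The bands were chosen after the values were seen. Spearman's rho between mean level and log2 change was -0.42 over the 47 members and -0.26 over the 436 families, a description across families that share both libraries. With copy number, rho was 0.11 over the members. Read depth is unknown, so the counting error behind these low values could not be given.

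**Figure D3:**
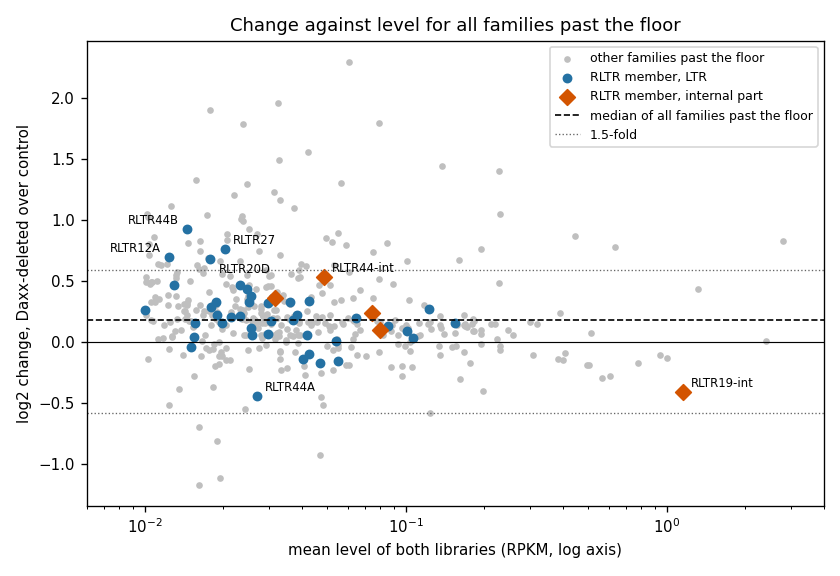
The horizontal axis is the mean level of both libraries in RPKM on a log scale and the vertical axis the log2 change, for the 436 families past the floor. Circles are LTR members, diamonds internal members and grey points the other families, with the median of 0.18 dashed and 1.5-fold dotted. The members past 1.5-fold lie at the left, and RLTR19-int lies at the right, apart from the other members and below 0.

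The RLTR20 LTRs form the largest group under 1 number, with 8 families past the floor. All 8 were higher in the Daxx-deleted library, as were 78.9% of all 436 families. The smallest log2 change of the RLTR20 LTRs was 0.04, the median 0.24 and the largest 0.68, and 5 of the 8 lay above the median family. RLTR20D is given above as the highest. RLTR20C followed, with 0.0271 RPKM in the Daxx-deleted library and 0.0193 RPKM in the control. RLTR20B1, the highest in level, had 0.0413 RPKM in the Daxx-deleted library and 0.0353 RPKM in the control. RLTR20B3, the lowest in change, had 0.0158 RPKM in the Daxx-deleted library and 0.0153 RPKM in the control. The 3 families RLTR20A, RLTR20A1 and RLTR20A2 had ratios of 1.27, 1.09 and 1.12. RLTR20B2 had 0.0111 RPKM in the Daxx-deleted library and 0.00906 RPKM in the control, and it was the member nearest above the floor.

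The RLTR31 LTRs were alike in level, and their log2 changes ran from 0.15 to 0.43. RLTR31A_Mm had 0.0285 RPKM in the Daxx-deleted library and 0.0209 RPKM in the control, a ratio of 1.36. RLTR31_Mm had 0.0210 RPKM in the Daxx-deleted library and 0.0165 RPKM in the control, a ratio of 1.27. RLTR31_Mur, the lowest in change, had 0.0208 RPKM in the Daxx-deleted library and 0.0186 RPKM in the control, a ratio of 1.12, and RLTR31B_Mm had a ratio of 1.17. All 4 were higher in the Daxx-deleted library, as were 78.9% of all families past the floor. The median log2 change of the 4 was 0.27, which is 0.10 above the median family. Both RLTR22 LTRs were also higher, although their levels differed. RLTR22_Mus had 0.0476 RPKM in the Daxx-deleted library and 0.0376 RPKM in the control, a ratio of 1.27. RLTR22_Mur, at a lower level, had 0.0152 RPKM in the Daxx-deleted library and 0.0108 RPKM in the control, a ratio of 1.41.

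Several other LTRs with a mean of at least 0.05 RPKM changed little. RLTR12B had 0.108 RPKM in the Daxx-deleted library and 0.106 RPKM in the control, a ratio of 1.02, although RLTR12A of the same number was 1.68-fold higher. RLTR15, the member with the most copies at 5398, had 0.0686 RPKM in the Daxx-deleted library and 0.0600 RPKM in the control. RLTR8 had 0.0544 RPKM in the Daxx-deleted library and 0.0542 RPKM in the control. These ratios lie between 1.00 and 1.14, at or below the median family or just above it. RLTR46 was lower, with 0.0520 RPKM in the Daxx-deleted library and 0.0582 RPKM in the control. Among the RLTR11 LTRs, RLTR11A was lower, with 0.0411 RPKM in the Daxx-deleted library and 0.0441 RPKM in the control, and RLTR11B was higher, with 0.0402 RPKM in the Daxx-deleted library and 0.0318 RPKM in the control. RLTR11A2, with 3340 copies, had a ratio of 1.16. The 7 members with lower values were RLTR19-int, RLTR19B, RLTR19C, RLTR44A, RLTR42, RLTR46 and RLTR11A.

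The rest of the LTRs past the floor were each higher in the Daxx-deleted library, as were 78.9% of all families past the floor. RLTR16 and RLTR33 had ratios of 1.31 and 1.26, and RLTR40 and RLTR26 had 1.23 and 1.17. RLTR25B, with 4486 copies, had a ratio of 1.14 and RLTR25A of 1.04. RLTR21 had 0.0427 RPKM in the Daxx-deleted library and 0.0411 RPKM in the control, a ratio of 1.04. Their levels lay within the range of the other LTR members, whose values ran from 0.0111 to 0.163 RPKM in the Daxx-deleted library and from 0.00906 to 0.146 RPKM in the control. The 42 LTRs past the floor had a median of 0.0287 RPKM in the Daxx-deleted library and 0.0258 RPKM in the control, and a median log2 change of 0.20.

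The 4 members outside the floor are given by value. RLTR44D, with 96 copies, lay just below it, at 0.0122 RPKM in the Daxx-deleted library and 0.00707 RPKM in the control, a ratio of 1.72. RLTR43A, with 239 copies, had 0.00467 RPKM in the Daxx-deleted library and 0.00278 RPKM in the control, a ratio of 1.68. RLTR43B and RLTR3_Mm, with 10 and 29 copies, were listed at 0 in both libraries. Across all 634 families, 33 were listed at 0 in both.

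The members were set beside the other ERVK families. The 29 RLTR9, RLTR10, RLTR13, RLTR17 and RLTRETN families past the floor had a median log2 change of 0.26, and 5 of them (17.2%) were at least 1.5-fold higher. The 53 ERVK families not named RLTR had a median of 0.30, and 17 of them (32.1%) were at least 1.5-fold higher. The members had a median of 0.20, with 8.51% at least 1.5-fold higher, and the 307 families outside ERVK had a median of 0.16, with 40 of them at least 1.5-fold higher. Above the median family lay 55.3% of the members, 75.9% of the other RLTR families and 71.7% of the ERVK families not named RLTR. Single families show the span. IAPEz-int, the internal part of an IAP element, had 0.201 RPKM in the Daxx-deleted library and 0.0736 RPKM in the control, a ratio of 2.74. MMERVK10C-int had 0.123 RPKM in the Daxx-deleted library and 0.0348 RPKM in the control, a ratio of 3.54. MMETn-int, which belongs to an ETn element, had 2.40 RPKM in the Daxx-deleted library and 2.39 RPKM in the control. No member reached the ratios of IAPEz-int or MMERVK10C-int. With 1 library per condition the differences between these sets could not be tested.

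**Figure D4:**
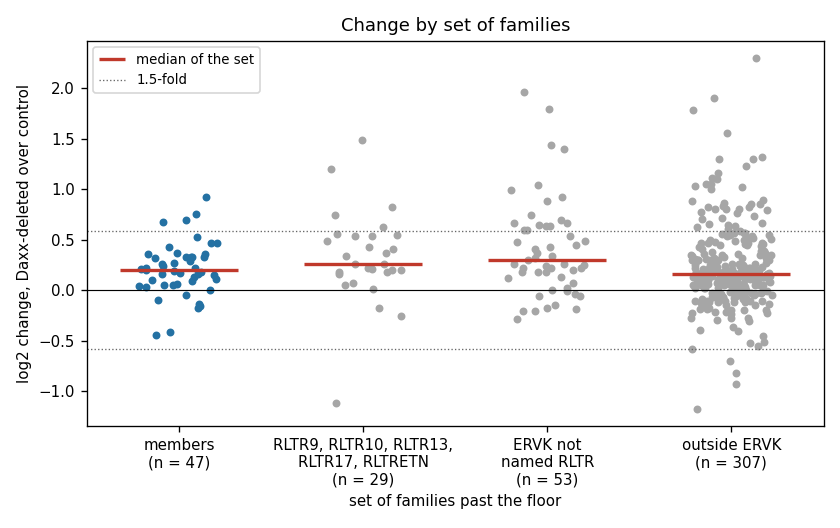
Each point is a family past the floor and the vertical axis is its log2 change, by set along the horizontal axis. Bars mark the medians, 0.20 for the 47 members, 0.26 for the other RLTR families of ERVK, 0.30 for ERVK families not named RLTR and 0.16 outside ERVK. The members span from -0.45 to 0.92, and the points above 1 lie in the other sets.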

How the data were processed

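RNA from 2 cultures was sequenced, 1 library per condition. Per the labels' protocols, total RNA was made into TruSeq RNA libraries. Per the info sheet deposited by the authors, reads were aligned to mm9 with JAGuaR 2.1, which runs BWA, with exon junctions of Ensembl 67, and BWA 0.7.10 is named in the submitters' processing notes. The authors deposited RPKM values. Their scale is the number of exonic reads of protein-coding genes, without mitochondrial genes, ribosomal proteins and the 0.5% of exons with the highest expression, per the info sheet. Multi-mapped reads were kept. Not given in the sources used here are how they were shared out, the repeat annotation, the length used and whether strand was used. Columns were matched to samples by treatment, and 0 columns of other samples were present.

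Whole reads were sought in the 43 families under 100 copies with values above 0 in both libraries. At the best common scaling, 11 of them had a quotient of both values within 0.4% of one made of whole numbers up to 8, so depth was not recovered, and no interval or detection limit is given.

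The log2 change used a pseudocount of 0.001 RPKM, which understates changes of low families. The median over all 436 families past the floor was 0.18, and changes relative to it are called relative to the median family. The fold thresholds were 1.5 and 2. Counting was checked on control levels changed by known factors without noise, which tests the arithmetic alone. Every member could be named, and values are given in full for internal parts, LTRs past 1.5-fold, the 10 highest LTRs and the extremes of numbers with at least 3 families. Other members, and some families outside them, were added after their values were seen. The members, lists, floor and pseudocount were chosen with earlier results of these data known. The tools were pandas 2.3.3 and numpy 2.4.6 under Python 3.11.15, with figures by matplotlib 3.10.9. Coordinates and sequences were not used.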

Additional observations from a re-analysis of the deposited data

How the results depend on the processing

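No member was 2-fold higher or lower under any alternative tried: a pseudocount of 0.0001, 0.01 or 0.1 RPKM, a minimum mean of 0.05 RPKM or none, no minimum of copies, at least 1000 copies, or subtraction of the median family. The 4 members at least 1.5-fold higher became 0 with pseudocounts of 0.01 and 0.1 RPKM, where 8.49% and 1.83% of all families were that much higher, and 0 with a floor of 0.05 RPKM, where 12.4% of all families were. They became 2 with at least 1000 copies (7.41%, against 12.1% of all families) and 5 with no floor on RPKM (10.4%, against 17.6%), which adds RLTR43A. After subtraction of the median family, 1 member was that much higher (2.13%, against 9.4%) and 2 were that much lower, against 12 of 436 families. The larger pseudocounts are of the size of the values themselves and the stricter filters keep fewer families. The median log2 change of the LTR members stayed above 0, from 0.02 after subtraction to 0.25 with at least 1000 copies. For the internal parts the log2 ratio of summed RPKM was -0.30, against a median of 0.24, and it was 0.27 without RLTR19-int, an alternative chosen after seeing the data. Of 104 alternative values for the 26 members named by the rule, 101 stayed within 1.5-fold of the first value. The 3 that moved were those of RLTR12A, RLTR27 and RLTR44B with a pseudocount of 0.1 RPKM. This count says little about stability. A larger pseudocount makes each change smaller, and subtraction shifts every member by the same 0.18, which is under 1.5-fold. For changes under 1.5-fold a change of sign was not counted. On subtraction, 14 of the 40 higher members past the floor fell below the median family. No paired analysis was possible because there is 1 library per condition, and none could be left out for the same reason. Depth is unknown, so differences of a few thousandths of an RPKM have no error to be read against.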
